A study of Mus musculus with 2 samples.

Results

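The excitatory postsynaptic scaffolds were 9 genes, Dlg1, Dlg2, Dlg3, Dlg4, Shank1, Shank2, Shank3, Dlgap1 and Dlgap2, of 55450 annotated genes with a symbol. They were taken by gene symbol, with earlier results of these data known, and they carried 112 annotated transcripts. The RNA came from the hippocampus of female B6CASTF1/J mice aged 14 days, a cross of C57BL/6J with CAST/EiJ, and was sequenced as total RNA with ribosomal RNA reduced. There was 1 group of 2 biological replicates, each listing 3 females with different mouse numbers and made from 300 ng of RNA with ERCC spike-ins. The labels list no genetic change and no treatment, and they describe the source as a hippocampal layer that is not named. At which step the listed females were pooled is not stated in the labels, and the libraries share a donor identifier.

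The postsynaptic density is a protein sheet under the membrane of excitatory synapses, and its scaffolds are stacked in layers. Dlg proteins (the membrane-associated guanylate kinases) bind the tails of NMDA receptors and of AMPA receptor auxiliary subunits through PDZ domains, Dlgap proteins bind the guanylate kinase domain of Dlg proteins from below, and Shank proteins bind the Dlgap tails and link them to Homer and the actin cytoskeleton. In the hippocampus these proteins help set how many receptors a spine holds, and variants in several of the human genes are associated with autism or intellectual disability. Many of the genes have several promoters and small coding exons, so the level of a gene and the forms it makes are separate measurements.

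The exons below carry the differences in form described later, and each set holds corresponding exons of related genes. Sequences were read from the GENCODE M21 transcripts of the mm10 assembly, all on the plus strand, 5′ to 3′. Capitals mark the longest run of bases that all members of the set share. The exon sets and starts shown were chosen after the annotation and their values had been seen. The first set is an exon of 100 bases in Dlg1 (chr16:31846834-31846933), Dlg2 (chr7:92417224-92417323) and Dlg3 (chrX:100808053-100808152).
Dlg1: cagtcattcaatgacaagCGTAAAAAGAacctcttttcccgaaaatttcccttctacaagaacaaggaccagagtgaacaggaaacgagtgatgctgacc
Dlg2: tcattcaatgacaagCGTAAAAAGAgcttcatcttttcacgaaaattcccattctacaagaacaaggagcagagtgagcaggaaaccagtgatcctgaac
Dlg3: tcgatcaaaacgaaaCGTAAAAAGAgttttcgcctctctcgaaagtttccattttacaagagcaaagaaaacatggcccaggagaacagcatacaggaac
The Dlg1 and Dlg2 exons were identical at 84.5% of aligned positions, the Dlg2 and Dlg3 exons at 66% and the Dlg1 and Dlg3 exons at 61.5%. In annotated coding transcripts that span the position, each of these exons is replaced by a shorter one, of 34 bases in Dlg1 (chr16:31847636-31847669) and of 46 bases in Dlg2 (chr7:92418088-92418133) and Dlg3 (chrX:100809862-100809907).
Dlg1: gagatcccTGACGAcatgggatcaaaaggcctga
Dlg2: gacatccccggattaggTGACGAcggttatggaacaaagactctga
Dlg3: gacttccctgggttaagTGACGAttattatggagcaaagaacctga
The short exons were closest between Dlg2 and Dlg3, with 78.3% identity. The next set is an exon of 42 bases in Dlg1 (chr16:31853843-31853884), Dlg2 (chr7:92420632-92420673) and Dlg3 (chrX:100811502-100811543).
Dlg1: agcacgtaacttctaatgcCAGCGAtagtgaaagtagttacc
Dlg2: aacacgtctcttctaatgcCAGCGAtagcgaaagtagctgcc
Dlg3: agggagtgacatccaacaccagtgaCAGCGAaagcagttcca
Identity in that set was highest between Dlg1 and Dlg2, at 85.7%. The run in capitals lies later in the Dlg3 exon than in the others, so it is not at an aligned position there. The Shank genes each hold a microexon, of 24 bases in Shank1 (chr7:44344298-44344321), 21 bases in Shank2 (chr7:144398241-144398261) and 24 bases in Shank3 (chr15:89538015-89538038).
Shank1: tctccccctggaAGAAGAAaattg
Shank2: cctcagtccggaAGAAGAAgg
Shank3: cttccattcggAGAAGAAaagggg
The 3 pairs of Shank microexons were identical at 62.5% to 64% of aligned positions, and all 3 hold the run AGAAGAA.

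All 9 scaffold genes were detected, meaning at least 1 TPM (the authors' level per transcript length, scaled to a fixed total per library) in both libraries, against 26.7% of all annotated genes and 58.7% of nuclear protein-coding genes. Their median level was 121 TPM, and that of the 12885 detected protein-coding genes was 14.9 TPM. The lowest expected count of a member in a library was 1853 and the highest was 45428, from totals of 33465393 expected counts in replicate 1 and 32879872 in replicate 2. With 2 libraries of 1 group no test between groups can be made, so levels are means ± SD over the libraries (n = 2) and the SD measures only the spread between them. In bulk tissue, fewer cells of a type and less RNA per cell cannot be told apart.

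**Figure D1:**
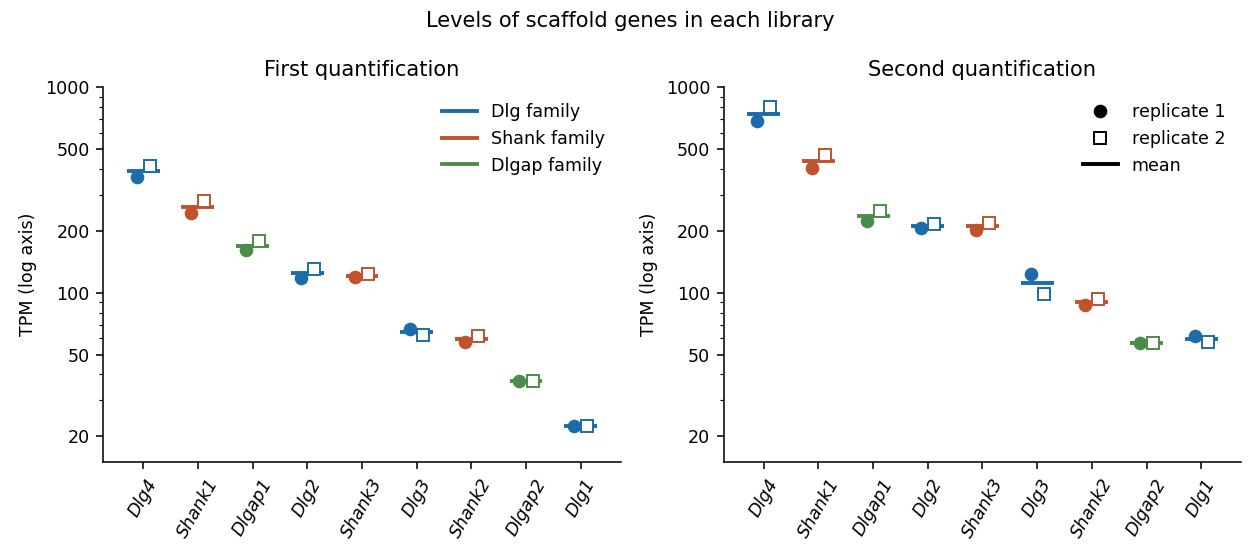
TPM of each scaffold gene on a log axis in the first quantification (left) and the second (right). Filled circles are replicate 1, open squares replicate 2 and lines the mean. Dlg4 was highest in both panels, and Dlg1 and Dlgap2 were the lowest pair.

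Among the receptor-binding Dlg genes, Dlg4, which encodes PSD-95, the most abundant scaffold of the mature density, had the highest level. It had 367 TPM in replicate 1 and 413 TPM in replicate 2 (390 ± 32.6), which placed it at percentile 99.4 of the detected protein-coding genes. Dlg2, which encodes PSD-93, had 118 and 131 TPM (125 ± 8.81). Dlg3, which encodes SAP102, a scaffold known for its role at young synapses, had 66.3 and 62.3 TPM (64.3 ± 2.86). Dlg1, which encodes SAP97, had the lowest level of the 9 genes, with 22.6 and 22.4 TPM (22.5 ± 0.0849). The ranges of these 4 genes did not overlap. Within a library, Dlg4 was 3.12 ± 0.0409 times Dlg2, 6.08 ± 0.778 times Dlg3 and 17.3 ± 1.52 times Dlg1.

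The Shank genes encode the deep layer of the density. Shank1 had 246 TPM in replicate 1 and 278 TPM in replicate 2 (262 ± 23.1), at percentile 98.6. Shank3 had 119 and 123 TPM (121 ± 2.79), and Shank2 had 57.9 and 61.5 TPM (59.7 ± 2.54). The order Shank1, Shank3, Shank2 held in both libraries without overlap, and Shank1 was 2.16 ± 0.141 times Shank3 and 4.38 ± 0.201 times Shank2. Of the linkers, Dlgap1 had 161 and 178 TPM (169 ± 12.5) and Dlgap2 had 37.2 and 37.0 TPM (37.1 ± 0.127), a ratio of 4.57 ± 0.352.

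In the order of all 9 levels, Dlg4, Shank1, Dlgap1, Dlg2, Shank3, Dlg3, Shank2, Dlgap2 and Dlg1, 1 of 8 neighbouring pairs overlapped. That pair was Dlg2 and Shank3, and Shank3 was the higher of them in replicate 1. Dlg3 and Shank2 were separated narrowly, with a lowest Dlg3 value of 62.3 TPM and a highest Shank2 value of 61.5 TPM. Summed by family within the 9 genes, the 4 Dlg genes reached 601 ± 38.5 TPM, the 3 Shank genes 443 ± 28.4 TPM and the 2 Dlgap members 206 ± 12.4 TPM. The last sum is not the whole Dlgap layer. It leaves out Dlgap3 and Dlgap4, with means of 130 and 84.2 TPM, which were counted as partners. The Dlg to Shank ratio was 1.36 per length in each library, but 0.763 ± 0.00921 on expected counts, which are not per length. Shank1 had the most reads of the 9 genes, 40538 and 45428 expected counts, against 24461 and 27321 for Dlg4.

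The genes differ widely in extent. Dlg4 lies in 30581 bases at chr11:70016942-70047522, and Dlg2 in 1972576 bases at chr7:90476672-92449247. Shank1 lies at chr7:44310253-44360572, Shank2 at chr7:144001928-144424494 and Shank3 at chr15:89499623-89560261. Dlg1 lies at chr16:31663443-31875129, Dlg3 at chrX:100767722-100818410, Dlgap1 at chr17:69969073-70821413 and Dlgap2 at chr8:14095865-14847680. All 9 genes are on the plus strand. Between 0% and 3.37% of a gene's 31-base words occur in another gene, with the highest share in Dlg4. The largest exonic overlaps were with 1700008O03Rik on the opposite strand of Shank1 (3.22% of its exonic bases) and with Gm15609 opposite Shank3 (2.95%). Whether counting used strand is not stated in the labels, so the assignment of reads in those stretches is uncertain. The overlapping genes themselves had 27 and 34 expected counts (1700008O03Rik) and 9 and 4 (Gm15609), far fewer than the Shank genes.

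The surrounding density was represented by 32 partner genes and an inhibitory pair. All 32 partners were detected, with a median of 64.9 ± 0.976 TPM and a range from 12.6 to 348 TPM. Among the highest was Dynll1, a dynein light chain that binds Dlgap proteins, at 391 TPM in replicate 1 and 304 TPM in replicate 2. Kalrn, which encodes kalirin, a guanine nucleotide exchange factor of dendritic spines, had 182 and 197 TPM. Dlg4 exceeded both of these partners in replicate 2, and Dynll1 exceeded Dlg4 in replicate 1. Dynll2, a second dynein light chain, had 176 and 170 TPM, and Grin2b, an NMDA receptor subunit, had 151 and 154 TPM. The lowest partners were Nos1, the neuronal nitric oxide synthase, at 13.9 and 11.4 TPM, Frmpd4 at 17.4 and 15.5 TPM, and Cacng2, which encodes the AMPA receptor auxiliary subunit stargazin, at 18.8 and 17.6 TPM. Of the 9 scaffold genes, Dlg1 came closest to these.

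Of the Dlgap genes outside the 9, Dlgap3 had 123 TPM in replicate 1 and 137 TPM in replicate 2, and Dlgap4 had 84.3 and 84.2 TPM, so both lay between Dlgap1 and Dlgap2. Homer genes, which encode the adaptors that Shank binds, were lower than Shank1 and Shank3. Homer1 had 62.8 and 56.8 TPM, Homer2 had 42.1 and 48.1 TPM and Homer3 had 36.6 and 33.2 TPM. Gphn, which encodes gephyrin, the scaffold of inhibitory synapses, had 34.3 and 32.2 TPM, and Dlg4 was 11.8 ± 1.49 times Gphn. The ratio compares RNA levels only.

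**Figure D2:**
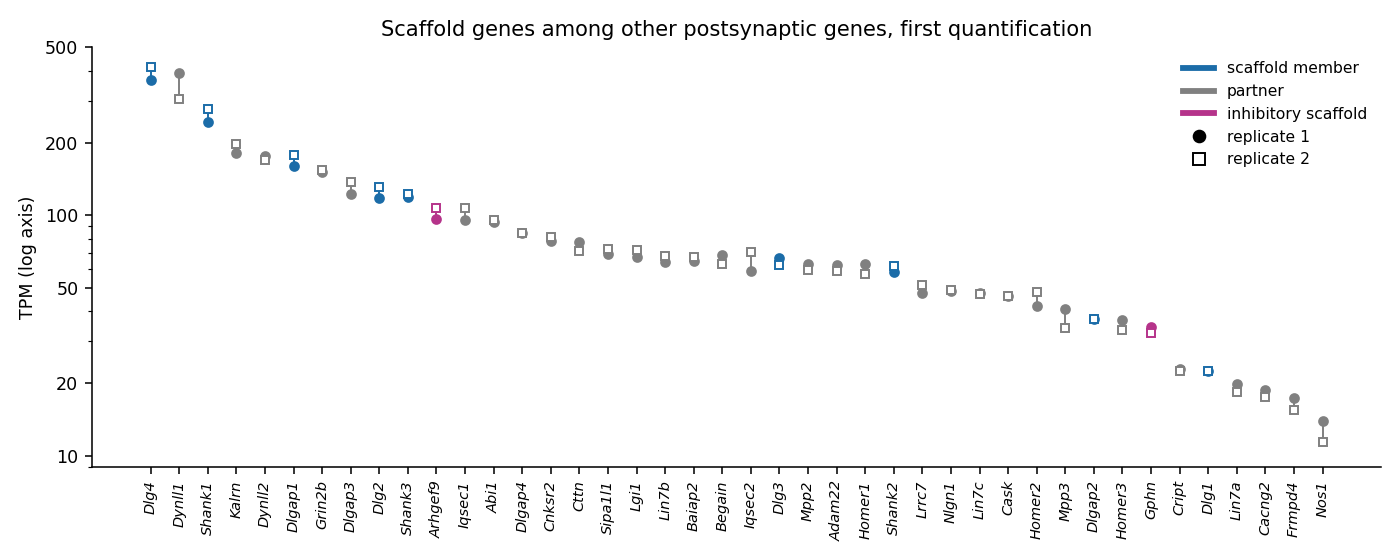
TPM of the scaffold genes, 31 of the 32 partner genes and the inhibitory scaffold pair in the first quantification, on a log axis and ordered by mean. Circles are replicate 1 and squares replicate 2. Dlg4 lies first, and Dlg1 lies among the lowest genes.

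The tissue was checked against marker lists. Summed markers of excitatory neurons reached 2920 TPM in replicate 1 and 3137 TPM in replicate 2, with 5 of 5 detected. Those of interneurons reached 190 and 169 TPM, of astrocytes 420 and 472 TPM, of oligodendrocytes 1374 and 1354 TPM, of microglia 78.4 and 91.5 TPM, of endothelium 53.9 and 55.0 TPM, and of fibroblasts and meninges 50.3 and 33.1 TPM. The choroid plexus list, 5 genes led by Ttr, reached 1408 TPM in replicate 1 and 6.29 TPM in replicate 2, and no marker gene of any list was at 0.

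Replicate 1 gave lower scaled counts than replicate 2 for all 9 scaffold genes, against 52.5% of the 14708 genes compared. On expected counts scaled by TMM (trimmed mean of M-values), the log2 ratio of replicate 1 over replicate 2 ranged from -0.28 in Shank1 to -0.10 in Dlg3, with a median of -0.21, and the median over all genes was -0.01. The ratio was -0.27 in Dlg4 and in Dlgap1, -0.22 in Dlg2, -0.21 in Shank3, -0.20 in Shank2, -0.12 in Dlgap2 and -0.10 in Dlg1. With TMM the 95% counting interval excluded 0 for all 9, against 38.4% of all genes compared and 20 of 32 partners, and these intervals cover counting error only. It excluded 0 for 8 members with DESeq2 size factors (38% of all genes), Dlg1 being the exception. It did so for 6 with total counts (42.4%) and for 6 with ERCC spike-ins (40%), the exceptions being Dlg1, Dlg3 and Dlgap2 in both. Past 1.2-fold were 3 of 9 genes, Dlg4, Shank1 and Dlgap1, against 21.1% of all genes compared, and 0 of 9 were past 1.5-fold, against 4.17%. The count of 3 became 0 under size factors of DESeq2 (21% of all genes), total counts (23.7%) or ERCC spike-ins (22.5%). All 9 log2 ratios were below 0 under each, but those of Dlg1 and Dlg3 were only -0.02 and -0.01 with total counts.

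The partner list moved less by its median, but single partners ranged more widely. Its median ratio was -0.10, with 25 of 32 genes lower in replicate 1 and 2 past 1.2-fold, Homer2 and Iqsec2. These 2, at -0.279 and -0.356, lay below the lowest scaffold gene, Shank1 at -0.275. Dlgap3 had -0.261, and the highest partner was Dynll1 at 0.256. On the deposited TPM, Dlg1, Dlg3 and Dlgap2 had slightly positive log2 ratios of 0.01, 0.09 and 0.01, so the direction of these 3 depended on the scale. The common biological coefficient of variation was 0.104 over 17902 genes. Replicate 1 is also the library with the choroid plexus RNA, and the part of that difference in these ratios was not tested. There is 1 library on each side, so the ratios compare the libraries and have no replicate check.

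**Figure D3:**
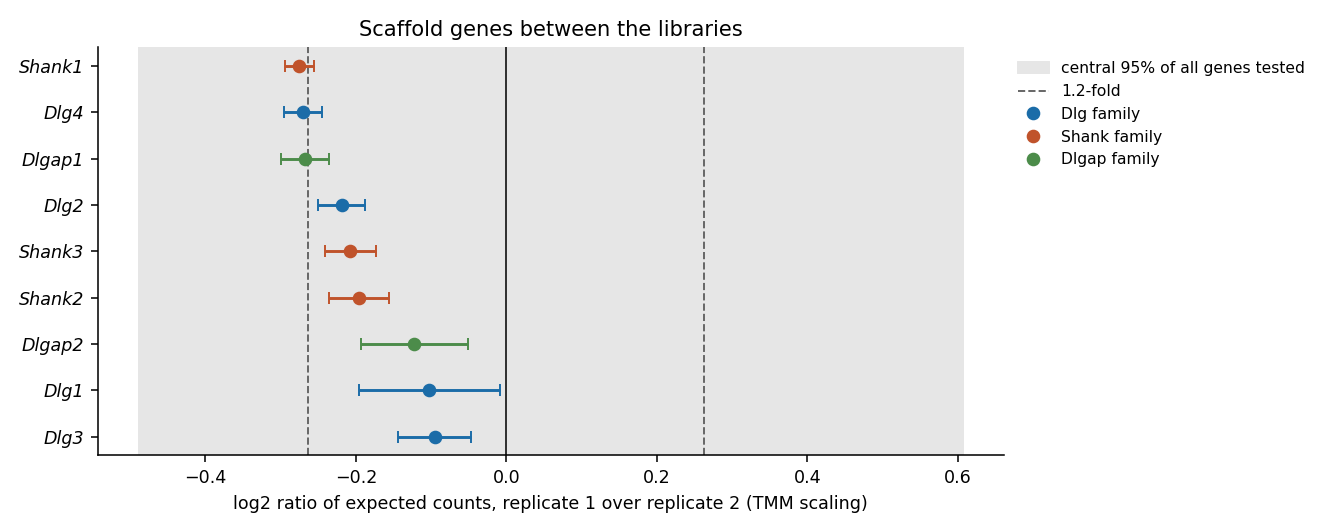
Log2 ratio of expected counts, replicate 1 over replicate 2 with TMM scaling, for each scaffold gene. Bars are 95% counting intervals, the grey band is the central 95% of all genes compared and dashed lines mark 1.2-fold. All 9 points lie left of 0 and inside the band.

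The share of a transcript is its percent of the gene's TPM in the first quantification, as the authors deposited it. A single transcript held over 50% in both libraries in 4 of 9 genes, Dlg2, Dlgap2, Dlg4 and Shank1. Dlg2-204, which holds the coding sequence of the PSD-93 form with an N-terminal cysteine cluster, had 71.0% in replicate 1 and 70.6% in replicate 2. Dlgap2-203 had 65.9% and 68.9%, Dlg4-203 had 61.8% and 60.2%, and Shank1-203 had 54.1% and 52.2%. The second quantification had the same leading transcript in 7 of 9 genes, the exceptions being Dlg1 and Dlgap1, but its share was over 50% on average in 3 genes, Dlg2, Dlgap2 and Shank2. Dlg4-203 led Dlg4 with 31.1% and 28.6% there. Behind the leaders, Shank1-201 had 20.9% and 21.3%, the retained-intron transcript Shank1-206 had 13.2% and 13.5%, and Shank1-202 had 7.29% and 9.32%. Dlg4-201 had 12.8% and 14.8%, and the retained-intron transcript Dlgap2-207 had 13.9% and 10.4%.

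The other genes were more divided. Shank2-202 had 47.4% in replicate 1 and 54.6% in replicate 2, Shank2-205 had 37.9% and 33.3%, and Shank2-201 had 5.24% and 5.56%. Shank3-203 had 34.7% and 39.2%, Shank3-201 had 30.4% and 27.9%, and the short retained-intron transcript Shank3-205 had 15.4% and 12.5%. Dlg3-202 had 38.3% and 53.4%, the widest difference between libraries among the leading transcripts, with Dlg3-201 at 25.9% and 17.9% and Dlg3-204 at 22.4% and 21.6%. In Dlgap1 the leading transcript, Dlgap1-211, had 24.8% and 22.5%, Dlgap1-207 had 19.5% and 21.8%, and Dlgap1-209 had 10.9% and 11.0%. In the second quantification Dlgap1-207 led, with 22.5% and 26.2%.

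Dlg1 had no clear leader. Dlg1-202 had 23.8% in replicate 1 and 20.7% in replicate 2, against 19.0% and 21.9% for Dlg1-204, so the lead changed between the libraries. Dlg1-203 had 15.8% and 14.6%. In replicate 1 the authors' interval, whose level is not stated, was 3.26 to 6.82 TPM for Dlg1-202 and 3.34 to 4.89 TPM for Dlg1-204, and these overlap. Intervals of this kind did not always enclose the deposited value. For Dlg4-203 in replicate 1 the value was 226.4 TPM and the interval was 211.7 to 225.8 TPM, with the value above the upper bound.

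Coding starts separated the forms further. Of the TPM of Dlg4 transcripts with an annotated coding start, 77.6% in replicate 1 and 77.3% in replicate 2 used the start at 70018920, and 21.1% and 22.2% used the downstream start at 70030625. The first 60 coding bases of a transcript with each start show the difference, with capitals for the part inside the first coding exon. The upstream sequence, from Dlg4-203, holds the cysteine codons of the palmitoylated end of PSD-95, and the sequence of Dlg4-201 begins elsewhere.
Dlg4-203: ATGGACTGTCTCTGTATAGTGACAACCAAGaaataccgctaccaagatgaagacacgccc
Dlg4-201: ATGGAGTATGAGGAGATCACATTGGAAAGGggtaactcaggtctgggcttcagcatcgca
In Dlg2, 93.8% and 95.2% used the start at 91091007 (Dlg2-204) and 5.21% and 4.49% the start at 90504898 (Dlg2-217), which lies upstream.
Dlg2-204: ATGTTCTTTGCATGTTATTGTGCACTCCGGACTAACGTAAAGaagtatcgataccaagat
Dlg2-217: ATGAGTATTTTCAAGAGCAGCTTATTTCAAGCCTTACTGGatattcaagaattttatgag
Palmitoylation at the N-terminus anchors PSD-95 and PSD-93 to the membrane, which is background and was not measured here.

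Shank2 used 3 starts. The start at 144175920 took 49.1% in replicate 1 and 56.3% in replicate 2, the start at 144284969 took 44.8% and 40.1%, and the start of the longest form, at 144031264 with up to 5523 coding bases, took 6.10% and 3.59%. The first 60 coding bases of a transcript of each form follow in that order, with capitals as for Dlg4.
Shank2-202: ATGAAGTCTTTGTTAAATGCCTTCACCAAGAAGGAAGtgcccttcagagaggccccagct
Shank2-205: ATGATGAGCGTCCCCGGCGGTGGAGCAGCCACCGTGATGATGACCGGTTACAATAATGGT
Shank2-203: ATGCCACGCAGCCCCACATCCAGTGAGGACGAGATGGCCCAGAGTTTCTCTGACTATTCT
Shank3 had 4 annotated starts. The first pair, at 89499632 and 89499857, took 44.5% and 39.0% in replicate 1 and 49.1% and 34.9% in replicate 2. In the second quantification that pair took 67.8% and 7.83% in replicate 1 and 65.5% and 14.6% in replicate 2. Their transcripts, Shank3-203 and Shank3-201, each have 22 exons and share the last base. How reads that fit both were divided was not tested. The starts at 89523949 and 89533202 took 7.96% and 8.59% in replicate 1 and 8.73% and 7.21% in replicate 2. Their means were 13.1% and 9.05% in the second quantification, and 1.83% and 0.795% of expected counts, which are not per length. Shank1 used 1 start for all of its annotated coding transcripts. Dlgap1 had 50.4% and 48.4% at 70522188 and 38.2% and 39.2% at 70516022. That order turned in the second quantification, with 44.5% and 43.1% at 70522188 and 52.9% and 52.7% at 70516022, and on expected counts, with means of 42.2% and 52.8%. Dlgap2 had 90.2% and 89.5% at 14179667. Dlg3 had 99.3% and 97.9% at 100768072, and Dlg1 had 77.7% and 73.8% at 31664852.

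**Figure D4:**
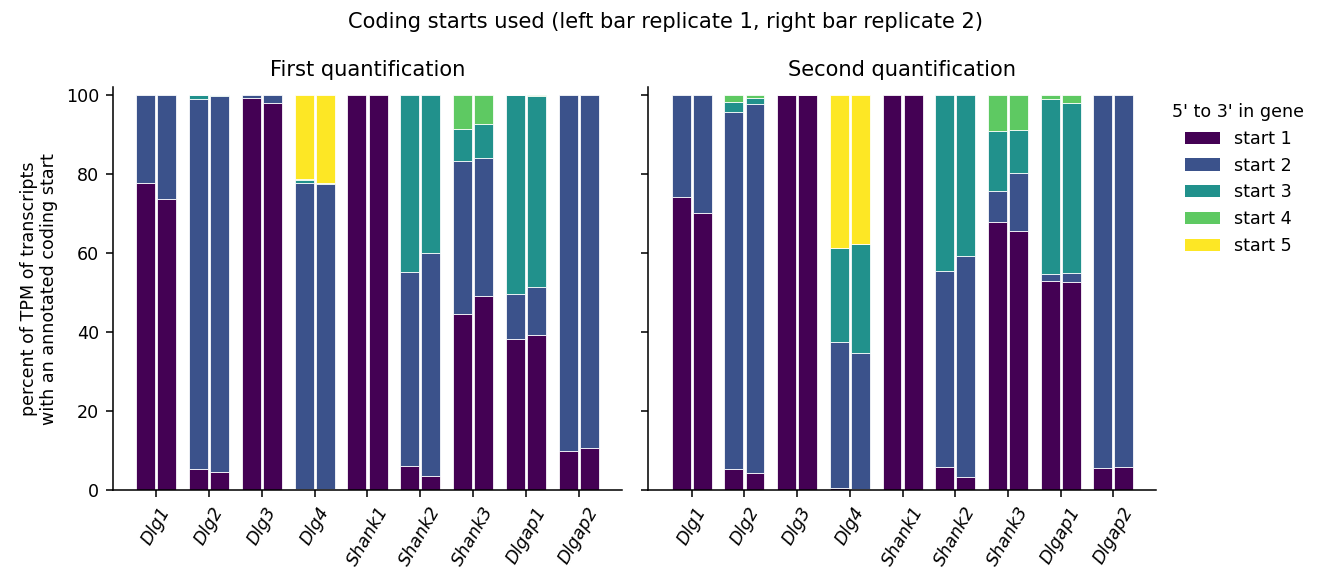
Percent of TPM of the transcripts with an annotated coding start, by start from 5′ to 3′ in the gene, for replicate 1 (left bar) and replicate 2 (right bar) in the first and second quantification. Shank1 has a single start, and the largest change between the panels is in Dlg4.

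The corresponding exons printed above were used to different extents. Values are the percent of TPM of annotated coding transcripts spanning the exon that include it, so only annotated combinations can be seen. The 100-base exon was included in 30.2% of Dlg1 in replicate 1 and 29.6% in replicate 2, in 2.66% and 3.43% of Dlg2, and in 0.691% and 2.10% of Dlg3. The short exon made up the rest, with 69.8% and 70.4% in Dlg1, 97.3% and 96.6% in Dlg2 and 99.3% and 97.9% in Dlg3. In Dlg1 the 100-base exon is in Dlg1-202 alone. In Dlg3 it is in 1 transcript, the only one with the coding start at 100774811. The Dlg3 values therefore repeat the share of the start at 100768072 and are not a separate measurement. In the second quantification the 100-base exon was in 26.8% ± 2.61 of Dlg1 (SD, n = 2), in 13.1% of Dlg2 in each library, and in 0.0401% and 0% of Dlg3. The Dlg1 values did not overlap those of Dlg2 or Dlg3 in either quantification, while the Dlg2 share differed several-fold between quantifications.

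The 42-base exon was in every spanning coding transcript of Dlg1, in 44.6% and 58.4% of Dlg3, and in 0% of Dlg2 in both libraries, where it is annotated in the coding transcript Dlg2-202 alone. In the second quantification that Dlg2 share was 1.69% and 0.710%. Dlg3 also carried an exon of 54 bases (chrX:100771307-100771360) that was included in 70.1% in replicate 1 and 80.7% in replicate 2. Both Dlg3 exons were lower in replicate 1, and both are in Dlg3-202, the transcript whose share differed most between the libraries.

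The 3 Shank microexons were included at like levels. Inclusion was 91.1% in replicate 1 and 88.7% in replicate 2 for Shank1, 88.5% and 90.7% for Shank2 and 91.4% and 92.1% for Shank3. Shank1 also had an exon of 27 bases (chr7:44334033-44334059) at 74.6% and 74.3%. In Dlgap1 an exon of 30 bases (chr17:70718196-70718225) was included in 34.5% and 34.7%, and in Dlgap2 an exon of 42 bases (chr8:14823574-14823615) in 99.3% and 99.1%.

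The quantifications gave the same order of levels except for the lowest pair, in which Dlg1 (59.6 TPM) stood above Dlgap2 (57.0 TPM) in the second. On deposited TPM, 1 of 9 genes, Dlg1, was over 2-fold apart in both libraries, with a log2 ratio of first over second of -1.40, against 18.8% of the 17363 genes compared. Rescaled over nuclear protein-coding genes, 0 of 9 were, against 10.8%, and Dlg1 had -0.68. At 1.5-fold the counts were 7 of 9 on deposited TPM, against 57.2% of all genes, and 1 of 9 after rescaling, against 14.4%. The expected counts of the first were 0.871 and 0.892 of those of the second for Dlg1, in replicates 1 and 2, so TPM differed more than the reads did.

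Several short transcripts took more of the TPM in the second quantification. Dlg1-213, a processed transcript of 470 bases, had 3.22% in replicate 1 and 2.16% in replicate 2 in the first quantification and 42.1% and 34.8% in the second, where it led the gene. Dlg4-206, of 540 bases, had 0.71% and 0.16% in the first and 23.4% and 26.6% in the second. The order of the main Dlg4 starts turned there, with 37.1% and 34.3% at 70018920 and 38.7% and 37.7% at 70030625. Dlg4-206 has a start of its own, at 70024070, which took 23.8% and 27.7% in the second. Its first coding exon also holds cysteine codons and joins the same next bases as that of Dlg4-203. The turn is therefore between single starts, not between all forms with a cysteine end and the downstream form. Dlg3-205, of 559 bases, had 5.15% and 0.60% in the first and 31.1% and 12.5% in the second. Shank1-205, of 608 bases, had 3.13% and 2.51% in the first and 19.7% and 20.04% in the second. Shank3-206, of 899 bases, had 2.30% in each library in the first and 17.0% and 24.1% in the second. The retained-intron transcripts Shank3-205, of 596 bases, and Shank1-206, of 987 bases, went the other way, with 13.3% and 9.96% and with 6.71% and 7.90% in the second. Over long genes, lengths exceeded effective lengths by a median of 99 in the first quantification. Over long transcripts in the second, the median was 343.1 in replicate 1 and 346.1 in replicate 2. Short transcripts differed from these medians in the second. Dlg1-213 had an effective length of 371 in the first, and of 146.7 and 145.1 in the second. The part of this in the shares was not tested.

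Longer transcripts also differed. Shank3-201 had 30.4% in replicate 1 and 27.9% in replicate 2 in the first quantification and 5.25% and 9.32% in the second. Shank2-201 had 14.0% and 16.9% in the second, and Dlg4-218 had 1.26% and 0.86% in the first and 11.9% and 12.7% in the second. Dlgap2-208, which skips the exon of 42 bases, had 0.50% and 0.70% in the first and 12.1% and 14.0% in the second, and inclusion of that exon was 83.6% and 82.2% in the second. The Dlg2 start at 91091007 held 90.3% and 93.5% in the second, and the Shank microexons held 79.4% to 83.0%.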

How the data were processed

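Total RNA from 2 hippocampal libraries was analysed as 1 group. The authors deposited, per the file headers, gene and transcript tables with expected counts (estimated reads, not whole numbers) and TPM, the percent of a gene's TPM for each transcript, and an interval of TPM treated here as a signal. A second deposited transcript table gives estimated counts and TPM. Both used mm10 and GENCODE M21 per the accompanying notes; no source used here gives aligners, versions or strand use.

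The members and lists were chosen with earlier results of these data known. Named genes were the 9 members, the 5 highest and 3 lowest partners, all Dlgap and Homer genes and Gphn (1 of the 5 is not reported here), and named transcripts had at least 10% in both libraries in either quantification; Dlg2-202, Dlg2-217 and Shank2-203 fall outside this rule and were chosen after their values were seen, to mark an exon or a start. Marker genes named in the text also fall outside this rule. Expected counts were rounded for scaling factors and counting intervals. Replicate ratios used expected counts of genes with a mean of at least 1 TPM and 50 summed counts, a prior count of 0.5, and TMM from edgeR 4.0.16 (R 4.3.3); DESeq2 1.42.0 gave alternative size factors. Alternatives were other scalings, thresholds and pseudocounts, the second quantification and each library alone. Quantifications were compared on log2(TPM + 0.1). Scaling was tested on simulated data. Python 3.11.15 with pandas 2.3.3 and matplotlib 3.10.9 did the rest. With 2 libraries of 1 group, no p-value is given.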

Additional observations from a re-analysis of the deposited data

How the results depend on the processing

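All 9 members and all 32 partners stayed detected under every alternative run for them. In the second quantification the ratios were 12.5 for Dlg4 to Dlg1, 3.51 for Dlg4 to Dlg2, 4.85 for Shank1 to Shank2, 2.34 for Shank3 to Shank2, 4.15 for Dlgap1 to Dlgap2 and 14.2 for Dlg4 to Gphn. The sums gave 1.52 for Dlg to Shank, 3.82 for Dlg to Dlgap and 2.51 for Shank to Dlgap, with Dlgap3 and Dlgap4 left out, and the partner median was 106 TPM. Each of these moved by more than 1 SD of the libraries, and the cause was not tested. On expected counts 3 of 9 members kept their rank, since counts are not per length. Past 1.2-fold between the libraries were 0 members with DESeq2 size factors (21% of all genes), 0 with total counts (23.7%) and 0 with ERCC scaling (22.5%), and 0 were past 1.5-fold (4.17%), against 3 with TMM (21.1%). The counting interval excluded 0 for 8, 6 and 6 members under those 3 scalings, a comparison added after seeing the data, against 9 with TMM. Between quantifications, 7 members differed at 1.5-fold on deposited TPM (57.2% of all genes), against 1 at 2-fold (18.8%). After rescaling, also added after seeing the data, 1 differed at 1.5-fold (14.4%) and 0 at 2-fold (10.8%). Without 1 replicate, the partner median ranged from 63.5 to 64.8 TPM, between 7 and 9 members kept their rank and 8 to 9 genes kept their leading transcript. No paired analysis was possible because there is a single group. Depth limits gene levels little here, since every member had at least 1853 expected counts in each library. Some transcript shares rest on far fewer. In the first quantification, replicates 1 and 2 had 6.17 and 4.09 expected counts for Dlg1-213 and 26.26 and 6.56 for Dlg4-206. Dlg3-205 had 35.95 and 3.9.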
